A study of Mus musculus with 8 samples.

Results

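MHC class II genes were followed over the day in bulk RNA sequencing of mouse colonic crypts. Bulk libraries do not show which cells made the transcripts. The genes were chosen by name: the chains H2-Aa, H2-Ab1 and H2-Eb1, the invariant chain Cd74, the regulator Ciita and the peptide-loading genes H2-DMa and H2-DMb1. All 7 were rows of the deposited table of 14247 genes, and all 7 were among the 13503 genes with a mean of at least 10 normalised counts that were tested. The libraries came from wild-type (WT) mice, which the methods of the study describe as C57BL/6 animals aged 2 to 4 months and housed under 12 h of light and 12 h of darkness. Tissue was collected at zeitgeber time (ZT) 0, 6, 12 and 18, counted in hours from lights-on, with 2 libraries per time point. The labels call the samples colonic epithelial cells and name no allele, no treatment and no separate animals, so that p-values measure the spread between these libraries only. The study collected them to ask whether apoptosis follows the time of day in the undisturbed epithelium, and the class II genes were compared here over the same time points.

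MHC class II molecules are pairs of an alpha and a beta chain that display peptides from the endosomal pathway to CD4+ T cells. B cells, dendritic cells and macrophages express them constitutively, and intestinal epithelial cells express them at a level that rises with interferon gamma and with the microbiota. The invariant chain guards the binding groove until the H2-DM heterodimer exchanges its remnant for antigenic peptides, and Ciita is the transactivator on which expression of the whole group depends.

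Ciita acts through a complex that binds an X box and a Y box just upstream of class II genes. RefSeq promoter windows (GRCm38.p6, 250 bases before to 50 after the start) were found for 4 of the 7 genes, H2-Aa, H2-Eb1, H2-DMa and H2-DMb1. The motifs were searched on both strands, namely ATTGG for the Y box, AGNNACNGA for the core of the X box, TTCNNNGAA for the interferon-responsive GAS element and CACGTG for the E-box. The 120 bases upstream of 2 chain genes are shown, H2-Eb1 with matches to both boxes and H2-Aa with a match to the Y box only. Matches to the X box core and the Y box are in capitals. They had to be exact, so a variant of a box would be missed. H2-Eb1 is given at chr17:34305747-34305866 on the plus strand and H2-Aa at chr17:34287824-34287943 on the minus strand, both read 5′ to 3′.
H2-Eb1: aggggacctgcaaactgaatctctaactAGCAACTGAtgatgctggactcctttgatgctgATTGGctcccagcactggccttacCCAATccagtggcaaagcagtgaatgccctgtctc
H2-Aa: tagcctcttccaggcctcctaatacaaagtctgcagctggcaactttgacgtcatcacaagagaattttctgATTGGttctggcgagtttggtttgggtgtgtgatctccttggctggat

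The window of H2-Eb1 held the X box core AGCAACTGA from position -92 to -84 and a Y box from -59 to -55, counted from the start site, with a second Y box on the other strand from -35 to -31. H2-DMb1 held AGTAACTGA from -95 to -87 and a Y box from -61 to -57, a nearly equal arrangement, and had another X box match on the other strand from -163 to -155. H2-Aa had a Y box from -48 to -44 and no match to the X box letters in its window, and the H2-DMa windows had only 1 Y box, at -198 to -194. The bases upstream of the 2 H2-DMa starts end at chr17:34122831 and chr17:34125517, inside the annotated gene (34119541-34139101). Any other start of H2-DMa was not searched, so its matches cover these windows only. Over all 32851 windows, 37.4% held the Y box letters and 17.7% the X box letters. An X box core with a Y box 20 to 45 bases downstream on the same strand, a spacing set after these sequences were seen, stood in 0.341% of all windows. No window of the 4 genes matched the GAS or the E-box letters, which stood in 8.30% and 7.15% of all windows.

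On chromosome 17 lie 5 of the genes (GRCm38, GENCODE M21): H2-DMa at 34119541-34139101, H2-DMb1 at 34153072-34160230, H2-Ab1 at 34257689-34269419, H2-Aa at 34282744-34287823 and H2-Eb1 at 34305867-34316674. Ciita lies on chromosome 16 at 10480059-10528418 and Cd74 on chromosome 18 at 60803848-60812652. Some of their reads could not be assigned with certainty. H2-DMb1 shares 22.7% of its exonic 50-base words with its paralog H2-DMb2. H2-DMa shares 8.43% of its words with Brd2 and Ciita 1.46% with Dexi, each of which overlaps it on the opposite strand, and whether the counting used strand is not given in the sources used here.

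The libraries held 14722342 to 25159440 recovered reads. The epithelial marker Epcam stood between 26494 and 33705 normalised counts in all 8 libraries, whereas leukocyte transcripts differed widely among them. ZT0 replicate 2 stood apart: its 11 B cell genes summed to 3074 normalised counts, against 41.7 to 537 in the other 7 libraries. ZT12 replicate 1 was the next, with 537. Differences of the class II genes from ZT0 are therefore also given without ZT0 replicate 2. In bulk libraries, fewer cells of a type and less RNA per cell cannot be told apart.

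The 3 chain genes were low at ZT6 and higher at ZT12 and ZT18, and at ZT0 they took both their highest value and one of their lowest. H2-Aa, the alpha chain of the I-A molecule, had 49.7 and 931 normalised counts at ZT0, then 83.8 and 46.8 at ZT6, 258 and 433 at ZT12 and lastly 525 and 218 at ZT18, replicate 1 first. H2-Ab1, its beta chain, had 151 and 1342 at ZT0 through 238 and 183 at ZT6 and 345 and 579 at ZT12 to 754 and 688 at ZT18. H2-Eb1, the beta chain of the I-E molecule, had 93.4 and 955 at ZT0, 99.8 and 64.2 by ZT6, 247 and 317 by ZT12 and 398 and 186 by ZT18. For each chain, both ZT12 libraries and both ZT18 libraries lay above both ZT6 libraries, while the ZT0 pair spanned all or nearly all of the other libraries. The partner gene of H2-Eb1, H2-Ea, was not analysed here, so the H2-Eb1 counts do not show that an I-E molecule was formed.

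Cd74, the invariant chain that also serves as the receptor for the cytokine MIF, had 184 and 3330 normalised counts at ZT0, then 420.1 and 198 at ZT6, 677 and 1123 at ZT12 and lastly 1326 and 1311 at ZT18. Its 2 ZT18 libraries were nearly equal, at 1319 ± 10.7 (SD, n = 2), whereas the ZT0 libraries differed 18.1-fold. Both ZT18 libraries lay above both ZT12 libraries, and these above both ZT6 libraries.

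Ciita, the transactivator, was scarce, with 15.9 and 73.7 normalised counts at ZT0 through 40.7 and 8.70 at ZT6 and 42.1 and 63.4 at ZT12 to 68.4 and 37.8 at ZT18. These values rest on 8 to 80 reads. Its ZT12 libraries lay just above those of ZT6, and its ZT18 libraries overlapped them.

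The peptide-loading pair had smaller differences. H2-DMa, the alpha chain of H2-DM, had 41.7 and 195 normalised counts at ZT0, 61.6 and 66.4 by ZT6, 44.9 and 66.9 by ZT12 and 54.7 and 114 by ZT18. H2-DMb1, a beta chain of H2-DM, had 37.7 and 161 at ZT0, then 40.7 and 42.4 at ZT6, 50.6 and 123 at ZT12 and lastly 99.97 and 61.9 at ZT18. H2-DMa overlapped between all pairs of time points, and H2-DMb1 separated ZT6 from ZT12 and ZT18 in the same direction as the chains.

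**Figure D1:**
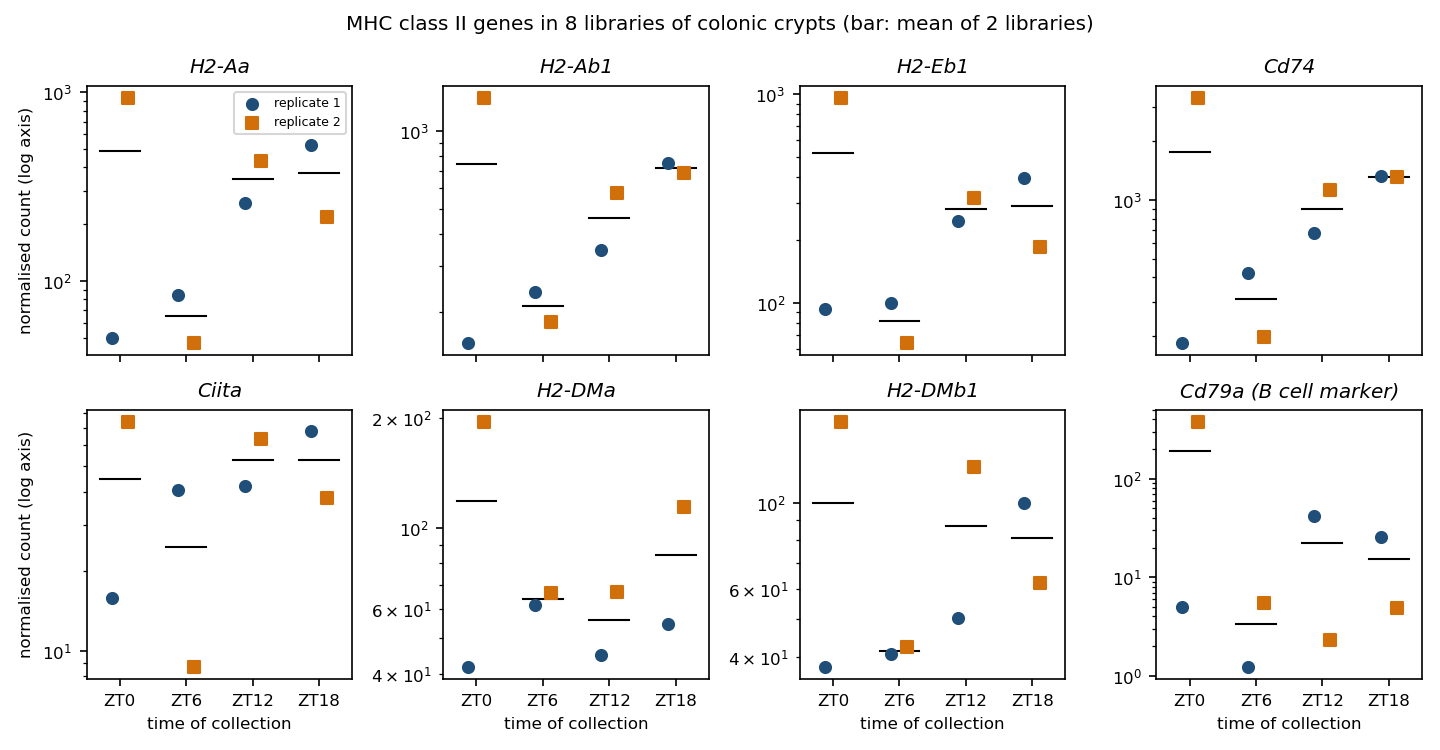
Normalised counts on a log axis (each panel with its own range) of the 7 class II genes and of the B cell marker Cd79a at ZT0, ZT6, ZT12 and ZT18. Circles are replicate 1, squares replicate 2 and bars the mean of the 2 libraries; ZT0 replicate 2 is the highest library in all 8 panels, and for Cd74 the ZT18 libraries (1326 and 1311) lie above those of ZT12 and ZT6.

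Per kilobase of exon, a measure that depends on the exon length assigned to each gene, the median level over the 8 libraries was highest for Cd74, at 536 normalised counts per kb. H2-Ab1 followed at 180.0, H2-Eb1 at 111, H2-Aa at 62.7, H2-DMb1 at 33.5, H2-DMa at 18.6 and Ciita at 4.34. The order held in 8 of 8 libraries between every pair of neighbours except one: H2-Aa was above H2-DMb1 in 5 of 8 libraries, with a mean log2 ratio of 0.38 ± 0.93 (SD, n = 8), so that these neighbours did not differ beyond their spread. The transactivator was thus the scarcest member per length in each library, and the invariant chain the most abundant. The length joins all annotated exons of a gene, used in these crypts or not, at 3798 bases for H2-Aa and 3448 for H2-DMa. Not divided by length, the median was 238 for H2-Aa against 216 for H2-Eb1, and 64.0 for H2-DMa against 56.2 for H2-DMb1. These neighbours then stood in the reverse order, so their ranks rest on the length used. The ratio of H2-Ab1 to Cd74 per kb stayed between 0.264 and 0.604, whereas that of H2-DMa to Cd74 ran from 0.0201 to 0.163.

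The spread between libraries of the same time point was large for these genes. At ZT0 the gap between the 2 libraries had a median of 3.14 on the log2 scale over the 7 genes, against 0.32 over all genes tested, and all 7 were higher in replicate 2. The gaps at the other time points were smaller, with medians of 0.63 at ZT6, 0.73 at ZT12 and 0.84 at ZT18, against 0.18, 0.33 and 0.40 over all genes. At ZT12 all 7 were again higher in replicate 2, the library with fewer B cell transcripts and a slightly higher T cell sum (211 against 182). At ZT18 6 of 7 were higher in replicate 1. The residual SD of the fit was 0.88 to 1.60 log2 units, with a median of 1.15 against 0.29 over all genes. Leaving out either ZT0 library takes the wide ZT0 gap out of this spread, so lower p-values without it carry no support by themselves.

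Differences between time points were tested with limma on log2(normalised count + 1), a scale that understates the change of low genes, with Benjamini-Hochberg adjustment over all genes tested. In the F-test over the 4 time points, 0 of 7 class II genes passed an adjusted p of 0.05, where 0.0889% of all genes did, and 0 of 7 had an unadjusted p under 0.05, where 7.03% did. The smallest adjusted p was 0.752, for H2-Aa. In the fit of a 24 h cosine, 0 of 7 passed, against 0.118% of all genes, and 0 of 7 had an unadjusted p under 0.05, against 9.15%. DESeq2 and edgeR on the recovered reads also called 0 of 7 in both tests, with 0 of 7 under an unadjusted 0.05. Over all 8 tests, DESeq2 put 4.42% to 10.2% of all genes under an unadjusted 0.05 and edgeR 4.15% to 9.8%. With ZT0 replicate 2 left out, 4 of 7 were under an unadjusted 0.05 in each limma test, where 7.78% of all genes were in the F-test and 7.15% in the cosine fit, and the smallest adjusted p was 0.221 and 0.129. With ZT0 replicate 1 left out, 4 of 7 were under it in the F-test, against 8.29%, and 2 of 7 in the cosine fit, against 11.7%.

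The fitted cosines placed 6 of the 7 genes in the middle of the night. Amplitudes, in log2 units from the mean to the peak, were 1.25 for H2-Aa, 1.10 for Cd74, 0.89 for H2-Ab1, 0.88 for H2-Eb1, 0.74 for Ciita and 0.45 for H2-DMb1, with fitted peaks between ZT16.5 and ZT18.2. H2-DMa had the lowest amplitude, 0.39, and a fitted peak at ZT22.5. The smallest adjusted p of these fits was 0.596, for H2-Ab1, so that no amplitude was larger than the spread between libraries. In an exact two-sided rank test against 24 h cosine orders, after the manner of the JTK test, the smallest p was 0.571, for H2-Ab1 and Cd74, and the adjusted p was 1 for each of the 7 genes. That test called 0 of 13503 genes, and the smallest p it can give is 0.0190 before adjustment.

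Of the 6 comparisons, mid-night against mid-day had the largest positive median difference over the 7 genes. For ZT18 against ZT6, the log2 difference was 2.42 for H2-Aa (SE 1.09, adjusted p = 0.748), 2.19 for Cd74 (SE 1.04, adjusted p = 0.770), 1.78 for H2-Ab1 (SE 0.78, adjusted p = 0.743) and 1.75 for H2-Eb1 (SE 0.87, adjusted p = 0.787). Ciita followed with 1.37, H2-DMb1 with 0.91 and H2-DMa with 0.30. The median of the 7 was 1.75, against -0.01 over all genes. By limma, 0 of 7 passed the adjusted threshold, where 0.0444% of all genes did. An unadjusted p under 0.05 was reached by 1 of 7, H2-Ab1, where 6.71% of all genes reached it. edgeR called 0 of 7 with 2 under an unadjusted 0.05, where 6.21% of all genes were, and DESeq2 called 0 of 7 with 0. With ZT0 replicate 1 or ZT0 replicate 2 left out, 4 of 7 were under an unadjusted 0.05 (7.04% and 7.06% of all genes), and the smallest adjusted limma p was 0.197 or 0.209, respectively.

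Judged by overlap alone, 5 of 7 genes had both ZT18 libraries above both ZT6 libraries, namely the 3 chains, Cd74 and H2-DMb1, where 19.2% of all genes did. H2-DMa turned to -0.22 without ZT18 replicate 2. Leukocyte transcripts moved in the same direction: the B cell sum was 62.8 and 65.3 at ZT6 and 276 and 101 at ZT18, and the T cell sum was 138 and 145 at ZT6 and 231 and 407 at ZT18. Their part in the result was not tested. The macrophage sum was 713 and 661 at ZT6 and 1010 and 640.2 at ZT18, and the markers Csf1r, C1qa, C1qb, C1qc and Cx3cr1 had 0 reads in ZT18 replicate 1.

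For ZT12 against ZT6, the log2 difference was 2.40 for H2-Aa (SE 1.09, adjusted p = 0.740), 1.79 for H2-Eb1, 1.59 for Cd74, 1.39 for Ciita, 1.10 for H2-Ab1, 0.91 for H2-DMb1 and -0.22 for H2-DMa. H2-DMa turned to 0.06 without ZT12 replicate 1. None of the 7 passed by limma, against 0% of all genes, and 0 of 7 were under an unadjusted 0.05, against 6.78%; DESeq2 and edgeR also gave 0 and 0. With ZT0 replicate 1 or ZT0 replicate 2 left out, 4 of 7 were under an unadjusted 0.05, where 7.06% and 7.01% of all genes were. In 6 of 7 genes, all but H2-DMa, both ZT12 libraries lay above both ZT6 libraries, where 23.5% of all genes did. ZT12 replicate 1, with a B cell sum of 537 and 256 normalised counts of the macrophage gene Lyz2, had less of every class II gene than ZT12 replicate 2, with 91.1 and 42.7. Of the other leukocyte measures, the plasma cell sum was 1167 and 156 and the pan-leukocyte sum 734 and 513 in these libraries, replicate 1 first. The macrophage sum was 1204 and 1148, and the T cell sum, 182 and 211, was higher in replicate 2. The median log2 deviation of the macrophage genes from their mean over the 8 libraries was 2.77 and 0.38. Between the time points, leukocyte lists were higher at ZT12 along with the class II genes: 11 of 11 B cell genes with a median log2 difference of 1.78, 7 of 8 macrophage genes with 1.70 and 7 of 8 pan-leukocyte genes with 1.34, beside 1.39 for the 7 class II genes. Of the T cell genes, 7 of 8 were higher, with a median of 0.52. The mitochondrial share of reads also separated these time points, at 19.2% and 19.4% at ZT6 against 6.68% and 7.85% at ZT12. Scaled to reads outside the mitochondrial genome, the class II median was 1.40. The part of leukocyte transcripts in the result was not tested.

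For ZT6 against ZT0, the log2 differences of all 7 genes were negative, with a median of -1.11, from -1.89 for H2-Eb1 to -0.49 for H2-DMa. This direction rested on ZT0 replicate 2: without it the median was 0.33 and 6 of 7 genes were higher at ZT6, and without ZT0 replicate 1 the median was -2.68, with 6 of 7 under an unadjusted 0.05, against 5.7% of all genes, and a smallest adjusted limma p of 0.0774. By limma, 0 of 7 passed, against 0.0444% of all genes, and 0 of 7 were under an unadjusted 0.05, against 4.13%. DESeq2 and edgeR called 0 of 7, with 3 and 4 under an unadjusted 0.05, where 4.42% and 4.15% of all genes were.

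For ZT12 against ZT0, the difference was 0.63 for H2-Aa, 0.57 for Ciita, 0.15 for Cd74, 0.01 for H2-DMb1, -0.01 for H2-Ab1, -0.10 for H2-Eb1 and -0.71 for H2-DMa, and the libraries overlapped for all 7. Without ZT0 replicate 1 the differences of H2-Aa, Cd74, Ciita and H2-DMb1 turned negative, and without ZT0 replicate 2 those of H2-Ab1, H2-Eb1 and H2-DMa turned positive. By limma, 0 of 7 passed, against 0.0667% of all genes, and 0 of 7 were under an unadjusted 0.05, against 9.96%. Without ZT0 replicate 1 or ZT0 replicate 2, 5 and 4 of 7 were under an unadjusted 0.05, in opposite directions, where 11.1% and 7.41% of all genes were. DESeq2 and edgeR on all 8 libraries called 0 of 7 with 0 under an unadjusted 0.05 and turned the direction of H2-Aa (-0.50 and -0.51), Cd74 (-0.97 by both) and H2-DMb1 (-0.20 by both).

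For ZT18 against ZT0, the direction depended on the ZT0 library. In the fit of all 8 libraries 5 of 7 genes were higher at ZT18, with a median difference of 0.55, and the libraries overlapped for all 7. Each of the 7 genes was lower in ZT0 replicate 1, and higher in ZT0 replicate 2, than in both ZT18 libraries. Without ZT0 replicate 2 the median was 1.62 with 7 of 7 higher and 4 under an unadjusted 0.05, against 6.72% of all genes, and without ZT0 replicate 1 it was -1.29 with 0 of 7 higher and 4 under it, against 5.35%. By limma on all 8 libraries 0 of 7 passed, against 0% of all genes, and 0 of 7 were under an unadjusted 0.05, against 5.02%. DESeq2 and edgeR called 0 of 7 with 0 under an unadjusted 0.05, and had 1 of 7 higher at ZT18, with a median of -0.40 by both.

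Between the night time points, ZT18 against ZT12, the differences ran from -0.04 for H2-Eb1 to 0.69 for H2-Ab1. H2-Ab1 and Cd74, 2 of 7, had both ZT18 libraries above both ZT12 libraries, where 17.8% of all genes did. Without ZT0 replicate 1 or ZT0 replicate 2, 1 of 7 was under an unadjusted 0.05, against 9.44% and 9.52% of all genes. Again 0 of 7 passed by limma, against 0.0296% of all genes, and 0 of 7 were under an unadjusted 0.05, against 9.03%. DESeq2 and edgeR called 0 of 7, with 0 under an unadjusted 0.05.

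**Figure D2:**
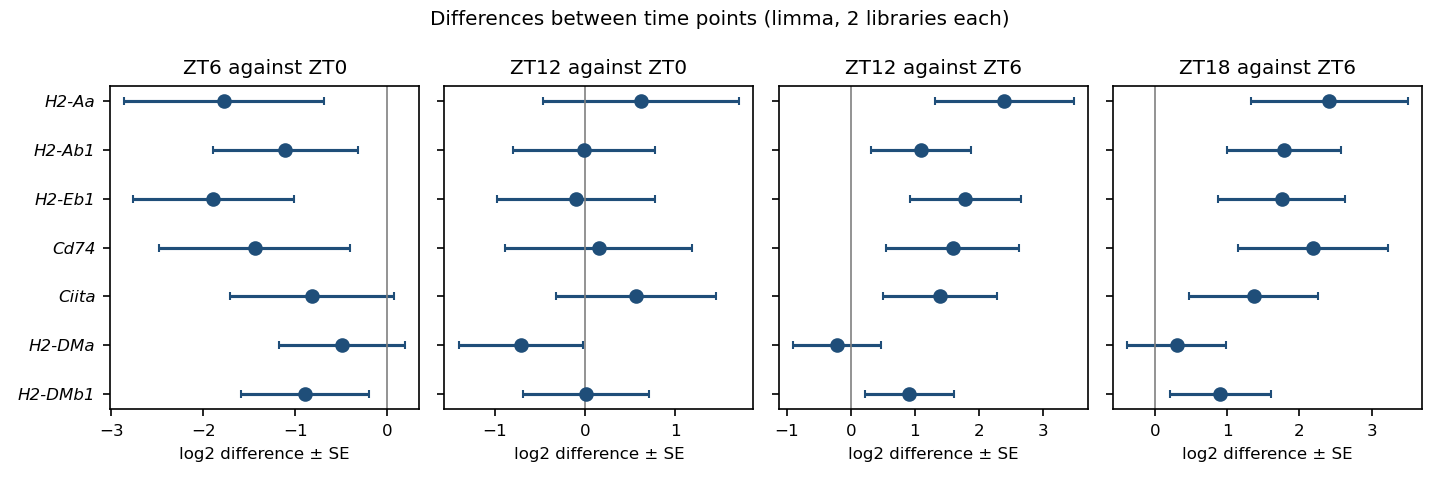
Log2 differences with their SE (limma, 2 libraries per time point) of the 7 class II genes in 4 comparisons of time points, each panel with its own axis range. For ZT18 against ZT6 all 7 points lie above 0, from 0.30 to 2.42, while for ZT12 against ZT0 they lie on both sides of 0; none passed the adjusted threshold.

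The class II genes varied together from library to library. Over the 21 pairs, Pearson's r of the log2 values in 8 libraries had a median of 0.883, and 16 pairs by Pearson and 15 by Spearman had an adjusted exact permutation p under 0.05. H2-Ab1 and Cd74 were the closest pair, with r = 0.990 and rho = 1.00 (exact permutation p = 2.48e-05 and 4.96e-05, the smallest that each can give), and r = 0.975 without the 2 libraries farthest from the median. H2-Aa and H2-Eb1 also ranked the libraries identically, with r = 0.975. All 10 pairs among the 3 chains, Cd74 and Ciita passed in both measures, with r from 0.825 to 0.990, and from 0.696 to 0.977 without the 2 farthest libraries. The pairs of H2-DMa had r from 0.370 to 0.728.

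Immune transcripts were then set beside the class II genes in the same libraries. Cd79a, a component of the B cell receptor, had 4.97 and 378 normalised counts at ZT0 through 1.23 and 5.44 at ZT6 and 42.1 and 2.31 at ZT12 to 25.6 and 4.83 at ZT18. Cd3e, a chain of the T cell receptor complex, had 0 and 13.1 at ZT0, 6.16 and 1.09 by ZT6, 8.43 and 6.92 by ZT12 and 13.7 and 18.5 by ZT18. The B cell marker was thus high in ZT0 replicate 2 above all, while the T cell marker, on 0 to 23 reads, was highest at ZT18. A count of 0 reads allows up to 3 reads, 2.98 normalised counts in ZT0 replicate 1, and covers counting error only.

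In ZT0 replicate 2, the markers of several leukocyte types were high together: the B cell surface protein Ms4a1 at 234, the pan-leukocyte phosphatase Ptprc at 748, the macrophage receptor Csf1r at 88.6 and Lyz2 at 1048 normalised counts, with 0 of 11 B cell and 0 of 9 macrophage genes at 0 reads. In ZT12 replicate 2 the class II genes summed to 2706 while Cd79a stood at 2.31, Ms4a1 at 13.8 and Csf1r at 3.46, and the B cell genes Cd79b, Fcmr and Blk had 0 reads. In ZT18 replicate 2 they summed to 2617 while Cd79a stood at 4.83, Ms4a1 at 6.43 and Csf1r at 13.7, and Cd22 and Fcmr had 0 reads. ZT0 replicate 1, with a sum of 573, had Cd79a at 4.97 and Ms4a1 at 1.99. The class II sum of ZT12 replicate 2 was thus 4.72 times, and that of ZT18 replicate 2 4.57 times, the sum of ZT0 replicate 1, whose B cell sum was 41.7 against 91.1 and 101. Other leukocyte measures moved in the same direction: Ptprc was 4.36 and 5.15 times, and the T cell sum 3.73 and 7.19 times, that of ZT0 replicate 1, while the B cell sum was 2.18 and 2.43 times and the macrophage sum 1.33 and 0.739 times. The macrophage sum weighs its most abundant genes most. The median log2 deviation of the macrophage list was -1.47 in ZT0 replicate 1. It was 0.38 in ZT12 replicate 2 and -0.67 in ZT18 replicate 2. The part of leukocyte transcripts in the class II values was not tested.

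The class II sum was 2.27 times the B cell sum in ZT0 replicate 2 and 3.10 times in ZT12 replicate 1, against 9.33 to 29.7 times in the other 6 libraries. Plasma cell transcripts were also high in both of the former: Jchain stood at 76.5 and 124 normalised counts, against 6.43 to 32.0 elsewhere. The dendritic cell integrin Itgax stayed between 0 and 29.0. Irf8, the other dendritic cell gene in the table, stood between 1135 and 1711 in all libraries, so that the dendritic cell sum of these 2 genes was nearly that of Irf8 alone.

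**Figure D3:**
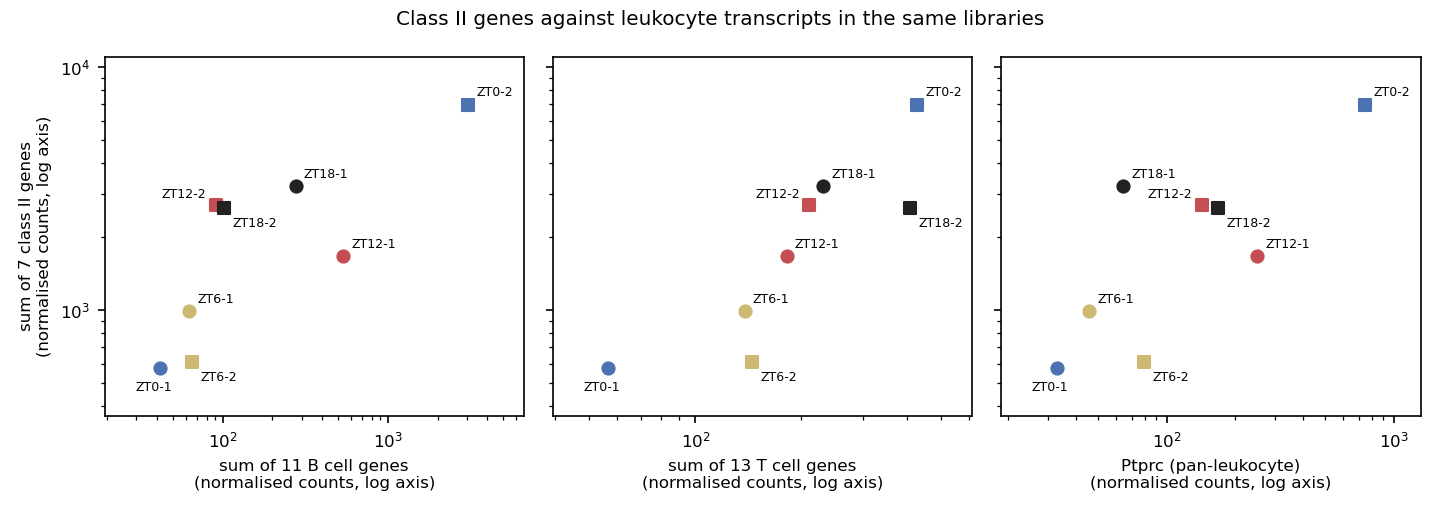
Sum of the 7 class II genes against the sum of 11 B cell genes, the sum of 13 T cell genes and Ptprc, in normalised counts on log axes; each point is a library, labelled by time point and replicate. ZT0 replicate 2 lies far out on the B cell axis (3074), while ZT12 replicate 2 and ZT18 replicate 2 hold 2706 and 2617 class II counts at B cell sums of 91.1 and 101.

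Correlations over the 8 libraries were computed for 42 relations, the 7 class II genes by 6 immune measures, each with an exact permutation p adjusted over the 42. For Cd79a, r was 0.415 to 0.767 and rho 0 to 0.452, and 0 of 7 relations passed in either measure (smallest adjusted exact permutation p 0.0746 for r and 0.392 for rho). Without ZT0 replicate 2 and ZT12 replicate 1, the libraries farthest from its median, r was -0.17 to 0.439, so that the relation to Cd79a rested on those libraries. For the B cell sum, r was 0.587 to 0.861, with a median of 0.744, and rho 0.405 to 0.833. Of the 7 relations, 0 passed by Spearman and 1 by Pearson, H2-Eb1 (exact permutation p = 0.00489, adjusted 0.0342, rho = 0.810), which kept r = 0.814 without the same 2 libraries. Over the 7 genes, r without those libraries ran from 0.207, for H2-DMa, to 0.837, for H2-Ab1, with a median of 0.784.

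T cell transcripts came next. For the T cell sum, r was 0.629 to 0.896, and H2-Ab1 (r = 0.896) and Cd74 (r = 0.887) passed in both measures, each with rho = 0.952 (exact permutation p = 0.00114, adjusted 0.0240). Without the 2 farthest libraries, both of ZT0, r was 0.821 for H2-Ab1 and 0.778 for Cd74. For Cd3e, r was 0.532 to 0.877 and the same 2 genes passed by Pearson (adjusted exact permutation p = 0.0277 for each) and not by Spearman (0.0608), with r = 0.703 and 0.654 without ZT0 replicate 1 and ZT6 replicate 2. Cd8a, a T cell coreceptor, had 2.98 and 12.1 normalised counts at ZT0, then 6.16 and 13.1 at ZT6, 33.7 and 53.0 at ZT12 and lastly 81.2 and 84.4 at ZT18. Its 4 night libraries lay above the 4 libraries of ZT0 and ZT6, ZT0 replicate 2 included. For ZT18 against ZT6 its log2 difference was 3.06 (SE 0.80, adjusted p = 0.556 by limma), which did not pass. DESeq2 called Cd8a in the F-test (adjusted p = 0.00771), the cosine fit (adjusted p = 0.00252) and ZT18 against ZT0 (adjusted p = 0.0164), and edgeR did not.

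For the macrophage sum, 1 of 7 passed by Pearson, H2-Eb1 (r = 0.861, adjusted exact permutation p = 0.0409) and 0 by Spearman. For the dendritic cell sum, 1 of 7 passed by Pearson, H2-DMa (r = 0.857, adjusted exact permutation p = 0.0277), and its r was 0.620 without both ZT0 libraries, while r of the other 6 genes turned negative without them, from -0.85 to -0.52. Time of day, library and immune content vary together over these 8 libraries and cannot be told apart by a correlation.

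Another 3 class II genes had a pattern of their own. H2-Ob, a chain of the H2-DO inhibitor of H2-DM, had 12.9 and 383 normalised counts at ZT0 through 0 and 0 at ZT6 and 62.7 and 5.76 at ZT12 to 17.9 and 7.24 at ZT18. H2-DMb2, the paralog of H2-DMb1, had 206 in ZT0 replicate 2, 35.6 in ZT12 replicate 1 and 0 to 6.92 in the other 6 libraries, and H2-Eb2 had 81.1, 22.5 and 0 to 4.35 in the same order. Their high libraries were those with high B cell sums, and in ZT12 replicate 2 and both ZT18 libraries, where H2-Aa had 218 to 525, these genes had at most 17.9. None of the 3 passed by limma in any comparison, with an unadjusted p under 0.05 in 2 of 3 for ZT6 against ZT0, in 1 for ZT12 against ZT6, in 1 in the F-test and in 0 elsewhere. Of all genes, 4.13%, 6.78% and 7.03% were under it in those 3 limma tests. DESeq2 called H2-DMb2 in the F-test (adjusted p = 0.0152) and as lower at ZT18 than at ZT0 (adjusted p = 0.0430), and H2-Ob as lower at ZT6 than at ZT0 (adjusted p = 0.0337). DESeq2 passed 1.61% of all genes in the F-test, 1.4% in the cosine fit, 0.185% for ZT6 against ZT0, 0.415% for ZT18 against ZT0 and 0.504% for ZT18 against ZT6, more than limma in each, and edgeR called 0 of the genes of any list given here. H2-Oa was not analysed here.

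The general machinery of class II transcription and interferon gamma signalling was next. Of 15 genes, 0 passed by limma in any comparison, and for ZT18 against ZT6 the median difference was -0.09 with 6 of 15 positive and 2 under an unadjusted 0.05, where 6.71% of all genes were. DESeq2 called 1 of 15, in the F-test and for ZT18 against ZT0. Ifngr1, the ligand-binding receptor chain, stood between 5033 and 7724 normalised counts, and Irf1, an interferon-responsive factor upstream of Ciita, between 2683 and 4206. The RFX subunits that bind the X box, Rfx5, Rfxap and Rfxank, stood at 53.0 to 129, 214 to 361 and 233 to 420.2 normalised counts.

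Endosomal proteases and related genes were abundant in every library. In no comparison did any of the 8 pass by limma, and for ZT18 against ZT6 the median difference was 0.03 with 0 of 8 under an unadjusted 0.05, where 6.71% of all genes were. Ctsb, Ctsd and Ctss, cathepsins that degrade antigens and the invariant chain, stood at 7791 to 9912, 5352 to 6452 and 4138 to 7534 normalised counts, and the thiol reductase Ifi30 at 1574 to 1934. The ranges of Ctsb, Ctsd and Ifi30 were narrow beside that of any class II gene.

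Genes induced by interferon gamma had their highest sums at ZT18, 6746 normalised counts in replicate 1 and 4367 in replicate 2. Of 15 tested, 0 passed by limma in any comparison, 14 were higher at ZT18 than at ZT0 with a median difference of 1.16 (9 with an unadjusted limma p under 0.05, against 5.02% of all genes), and 13 were higher at ZT18 than at ZT6 with a median of 0.66 (8 under an unadjusted 0.05, against 6.71%). Without ZT0 replicate 2, 14 were higher at ZT18 than at ZT0 with a median of 1.55, and without ZT0 replicate 1, 12 with a median of 1.01. DESeq2 called 3 of 15 in the F-test and for ZT18 against ZT0, the GTPases Gbp3 (2.08, adjusted p = 0.0153), Irgm1 (1.14, adjusted p = 0.00388) and Irgm2 (1.19, adjusted p = 0.00388). Gbp2, a guanylate-binding protein, had 459.9 and 214 normalised counts at ZT0, then 293 and 306 at ZT6, 253 and 571 at ZT12 and lastly 1566 and 499 at ZT18. Irgm1, an immunity-related GTPase, had 617 and 802 at ZT0 through 945 and 1027 at ZT6 and 839.9 and 1193 at ZT12 to 1653 and 1470 at ZT18. In ZT0 replicate 2, where class II genes were highest, Gbp2 had its lowest value. The sum of the list was instead lowest in ZT0 replicate 1, at 2133 normalised counts, against 2323 in ZT0 replicate 2.

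Genes of MHC class I presentation gave 0 of 14 past the limma threshold in any comparison, with 12 of 14 higher at ZT18 than at ZT6, a median difference of 0.39 and 3 under an unadjusted 0.05, where 6.71% of all genes were. H2-K1, a class I heavy chain, had 28250 and 26816 normalised counts at ZT0, 24120 and 24622 by ZT6, 18230 and 31926 by ZT12 and 37202 and 31935 by ZT18. Nlrc5, the class I counterpart of Ciita, had 10.9 and 94.2 at ZT0, then 32.0 and 29.4 at ZT6, 44.0 and 101 at ZT12 and lastly 349 and 179 at ZT18. Both its ZT18 libraries exceeded all other libraries. For ZT18 against ZT6 its log2 difference was 2.99 (SE 0.87, adjusted p = 0.634 by limma), which did not pass. DESeq2 called it in that comparison (3.10, adjusted p = 0.0302), in the F-test (adjusted p = 0.0283) and in the cosine fit (adjusted p = 0.0198), and called Calr, a chaperone of class I assembly, in the cosine fit (adjusted p = 0.0193). The only costimulatory gene in the table, Icosl, stood between 223 and 402.

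**Figure D4:**
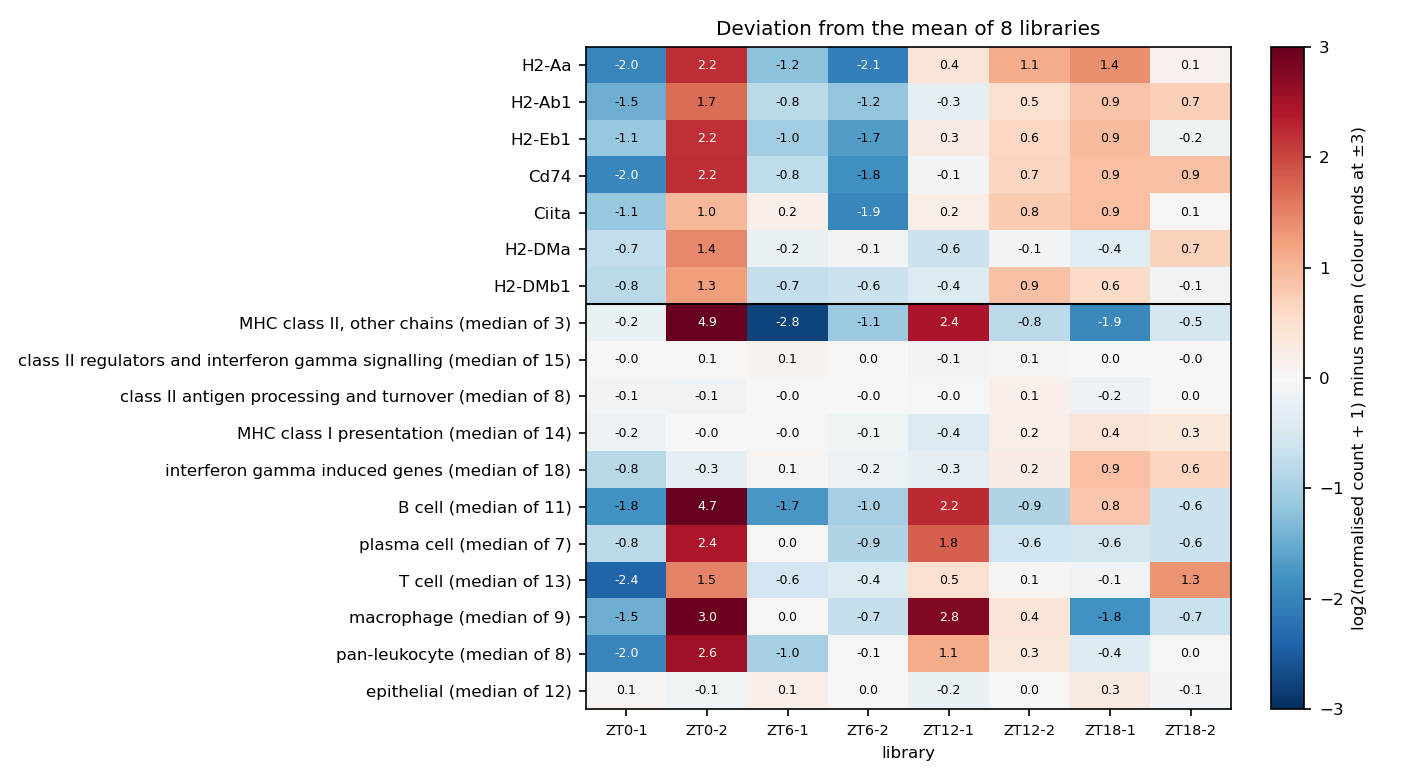
Deviation of log2(normalised count + 1) from its mean over the 8 libraries, for each class II gene (above the line) and as the median over each gene list (below); columns are libraries and the colour scale ends at 3 log2 units on either side. ZT0 replicate 2 is high for class II genes and leukocyte lists, ZT12 replicate 1 is high for the B cell, plasma cell and macrophage lists, and the epithelial list stays near 0.

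Genes whose pattern was most like that of the class II group were ranked by Pearson's r over the 8 libraries with the mean z-score of the 7 genes, as a description. The highest of 13496 other genes was Cfap36 (r = 0.974), which ran from 169 normalised counts in ZT0 replicate 1 to 272 in ZT0 replicate 2. Dtx1 (0.929), Fxyd5 (0.925), Acap1 (0.918), Stradb (0.915), Mras (0.914), Lsp1 (0.908), Fastkd5 (0.905), Fndc10 (0.899) and Itgal (0.899) followed. Itgal, the alpha chain of the leukocyte integrin LFA-1, ran from 0 in ZT0 replicate 1 and ZT6 replicate 2 to 56.0 in ZT0 replicate 2, and Lsp1, a leukocyte actin-binding protein, from 10.9 to 109. The median r was 0.648 over the 11 B cell genes, 0.727 over the 8 pan-leukocyte genes, 0.0216 over the 12 epithelial genes and 0.00542 over all other genes.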

How the data were processed

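The 8 libraries of colonic crypts were analysed, 2 at each of 4 time points. According to the methods and the submitters' processing notes, the authors aligned reads with STAR to GRCm38 and used DESeq2; counter, annotation and strand use are not given in the sources used here. The authors deposited 1 table whose library columns hold a signal, the read count of each gene divided by 1 size factor per library (the normalised count). The value of 1 read in each library was found from low values, and 100% of values were whole multiples of it (tolerance 0.1 read). The deposited table also holds the authors' own comparison (a log2 fold change, its error, a score and both p-values, raw and adjusted), which was not used. Library columns without a sample numbered 0. Genes under the table's lowest mean, 6.55, were not analysed here. GENCODE M21 matched 14239 of 14247 identifiers.

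limma 3.58.1 (trend) in R 4.3.3 was fitted on log2(normalised count + 1), keeping genes whose mean reached 10, all 8 libraries in 1 fit, with contrasts, an F-test and a 24 h cosine; because the values are normalised, DESeq2 1.42.0 and edgeR 4.0.16 on recovered reads were alternatives. The fits were tested on simulated data. Correlations used exact permutation over all pairings (numpy 2.4.6). A call is an adjusted p under 0.05 over all genes tested. PCR copies cannot be told from molecules here, so limits from counts cover counting error only. The 7 genes, the lists and the motifs were chosen with earlier results of these data known. Named genes are the 7, any list gene that passed a test, the 1 to 3 highest of each list by mean, key regulators and markers, and the 10 most alike genes. Alternatives were another pseudocount, no filter, other scalings, no trend, both count tools, the replicate block and each library left out. Some list genes enter the counts and are not reported by name here.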

Additional observations from a re-analysis of the deposited data

How the results depend on the processing

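Over 9 tests and all their alternatives, 145 values in all, the number of class II genes past the threshold was 0. The smallest adjusted p among them was 0.0774, for ZT6 against ZT0 without ZT0 replicate 1. Deviations of same-numbered libraries from the means of their time points had correlations of -0.29 to 0.22, without a common sign. With 2 libraries per time point, these values cannot show whether the numbers pair the libraries. With a replicate block, 0 of the 7 genes passed in any test.

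For ZT12 against ZT0, DESeq2 and edgeR gave -0.50 and -0.51 for H2-Aa, -0.97 and -0.97 for Cd74, and -0.20 and -0.20 for H2-DMb1. H2-DMb1 was also -0.0034 under TMM, -0.083 under quantile normalisation and -0.021 when scaled to reads outside the mitochondrial genome. With 1 library left out (an arm of 1 library is assumed to vary like the others), the values ran from -1.47 to 2.73 for H2-Aa, -1.58 to 1.56 for H2-Ab1, -1.77 to 1.57 for H2-Eb1, -1.93 to 2.24 for Cd74, -0.50 to 1.64 for Ciita, -1.81 to 0.39 for H2-DMa and -1.02 to 1.05 for H2-DMb1. For H2-DMa they ran from -0.50 to 0.064 for ZT12 against ZT6, positive without ZT12 replicate 1, and from -0.22 to 0.83 for ZT18 against ZT6, negative without ZT18 replicate 2. The cause of these turns was not tested beyond the libraries named. The median r with the dendritic cell sum turned from 0.258 to -0.68 without the 2 farthest libraries. Both the spread between the 2 libraries of a time point and the number of reads limit these comparisons, and they were not set against each other; Ciita rests on 8 to 80 reads, H2-DMb1 on 33 to 173 and H2-DMa on 42 to 209. Alternatives for the contrasts with ZT6, the medians for ZT18 against ZT0 and the shares of all genes under each alternative were added after seeing the data.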
